A study of Mus musculus with 11 samples.

Results

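The 10 genes described here serve sodium reabsorption in the distal nephron, and their transcripts were read in kidneys of mouse embryos at day 17, wild-type or homozygous for a change in Robo2, the gene of a receptor for Slit guidance ligands. The 10 genes were chosen by function, by name, though with earlier results of these data known. All 10 were among the 18193 genes that the arrays measured. They were read by 15 probe sets, 7 genes by 1 and 3 genes by several, and each gene is represented by the brightest of its probe sets, judged by mean log2 over the 11 arrays. The arrays fell into 5 groups, named here by their title prefix and genotype. E17R2 wild-type held 3 arrays (E17R2WT1, E17R2WT3, E17R2WT7) and E17R2 homozygous 3 (E17R2MU2, E17R2MU8, E17R2MU9). R2E17 wild-type was 1 array (R2E17-3), R2E17 homozygous 1 (R2E17-6), and the arrays labelled R2NB and homozygous were 3 (R2NB-3, R2NB-4, R2NB-5). All 11 carried the tissue label of embryonic day 17 kidney. The labels give no strain, sex or treatment, do not name the Robo2 allele, and do not explain the letters NB. They also do not say whether the arrays of a group came from separate animals or pools, so errors and p-values below cover only how these samples differed among themselves, which could be technical. Each array was made from whole kidney RNA, in which fewer cells of a type and less RNA per cell cannot be told apart.

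In the distal convoluted tubule, sodium enters with chloride through the thiazide-sensitive cotransporter encoded by Slc12a3. The kinases Wnk1 and Wnk4 activate the kinase Stk39 (SPAK), which phosphorylates and activates that cotransporter. Further downstream, in the connecting tubule and collecting duct, sodium enters through the epithelial sodium channel ENaC, built from the subunits of Scnn1a, Scnn1b and Scnn1g. Aldosterone acts there through the mineralocorticoid receptor Nr3c2 and raises the kinase Sgk1, which protects ENaC from removal. Hsd11b2 inactivates glucocorticoids in the same cells, so that aldosterone can reach the receptor.

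The 250 bases before the start of a few of these genes are shown, from RefSeq with build GRCm38.p6, read 5′ to 3′ on the strand of the gene. The table held such sequences for 8 of the 10 genes, with 13 starts in all, and Hsd11b2 and Scnn1a were not among them. Slc12a3 is shown because it had the largest genotype difference among the 10 genes (chr8:94328958-94329207, plus strand). Sgk1 is shown as the gene of the list that corticosteroids induce (chr10:21993640-21993889, plus strand). Of its 6 listed starts this is the one with the most motif matches. Scnn1g (chr7:121734229-121734478, plus strand) and Scnn1b (chr7:121864788-121865037, plus strand) are shown because they are neighbours in the order of coding genes and varied alike over the arrays. Capitals mark exact matches on either strand to the TATA box letters TATAAA, to the steroid receptor half-site AGAACA or to the HNF1 half-site GTTAAT.
Slc12a3: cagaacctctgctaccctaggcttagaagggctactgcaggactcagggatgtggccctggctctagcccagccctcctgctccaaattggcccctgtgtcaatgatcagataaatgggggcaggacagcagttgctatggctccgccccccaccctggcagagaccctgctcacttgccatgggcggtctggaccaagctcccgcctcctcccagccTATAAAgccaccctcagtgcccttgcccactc
Sgk1: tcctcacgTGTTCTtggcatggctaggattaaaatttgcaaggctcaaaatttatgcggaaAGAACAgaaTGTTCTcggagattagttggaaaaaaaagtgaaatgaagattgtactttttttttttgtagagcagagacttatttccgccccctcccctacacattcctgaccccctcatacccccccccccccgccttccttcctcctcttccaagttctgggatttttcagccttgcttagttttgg
Scnn1g: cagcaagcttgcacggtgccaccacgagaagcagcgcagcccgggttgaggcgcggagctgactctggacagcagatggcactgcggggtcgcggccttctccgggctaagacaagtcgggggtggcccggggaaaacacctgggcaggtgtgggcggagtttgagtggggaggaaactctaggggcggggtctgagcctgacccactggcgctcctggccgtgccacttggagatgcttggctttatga
Scnn1b: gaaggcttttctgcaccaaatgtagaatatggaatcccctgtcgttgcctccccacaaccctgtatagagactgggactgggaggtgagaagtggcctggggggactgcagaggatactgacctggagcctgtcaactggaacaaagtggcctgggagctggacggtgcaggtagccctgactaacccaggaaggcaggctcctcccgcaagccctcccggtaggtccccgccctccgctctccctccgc

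Slc12a3 had TATAAA on its own strand, beginning 32 bases before the start, as 12.4% of the 32851 promoters of this length had it somewhere on either strand. The Sgk1 promoter held AGAACA 3 times, beginning 242, 189 and 180 bases before the start, on the minus, plus and minus strand. Of all promoters 16.1% held that half-site at least once. The last 2 of these matches form the full site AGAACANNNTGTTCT, which 0.00913% of the promoters held (3 of 32851). Of the 13 starts of the 8 genes, 3 held the half-site, all of them Sgk1 starts. Only 1 held the full site, the Sgk1 start shown, so its match is that of a start with the most matches. Neither Scnn1g nor Scnn1b held any of the 3 short motifs in this window. No promoter of the 8 genes held GTTAAT, against 6.43% of all promoters. These are matches of letters and show no binding.

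Intensities made with RMA had been normalized apart in a set of 6 (the E17R2 arrays, medians of 23.4 to 24.6) and a set of 5 (the R2E17 and R2NB arrays, medians of 47.1 to 53.4). Values are log2 of these intensities, and levels may be compared only within a set. In the set of 5, 44% of genes had an identical value on at least 2 arrays, against 4.05% in the set of 6. The brain list summed to intensities of 236 to 383 in the set of 6 and the kidney list to 2693 to 5166, although free text in the labels speaks of human brain. E17R2MU9 stood apart from the other 5 arrays of its set. Its 12 smooth muscle markers summed to 48596 against 5722 to 7246, and its 11 proximal tubule markers to 1233 against 2384 to 3503. R2E17-3, the only wild-type array of its title series, had the largest difference between the 3′ and 5′ control probe sets of Gapdh, 0.70 against at most 0.22 on the other 10 arrays. Robo2 read 3.13 to 3.68 on the log2 scale in E17R2 wild-type and 2.03 to 2.37 in E17R2 homozygous arrays, and 3.96 and 3.37 in the R2E17 pair. The E17R2 genotypes did not overlap for it. On R2NB-3, R2NB-4 and R2NB-5, which are labelled homozygous, it read 3.28, 3.86 and 3.99. R2NB-3 thus lay below the homozygous R2E17-6, R2NB-4 between the arrays of the pair, and R2NB-5 above the wild-type R2E17-3. Robo2 therefore does not bear out the label of R2NB-4 and R2NB-5. Its signal was dim on all 11 arrays, at -0.87 to -2.55 relative to the array median. Since the labels do not say which part of Robo2 was changed, it is not known whether its 1 probe set can check a genotype.

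**Figure D1:**
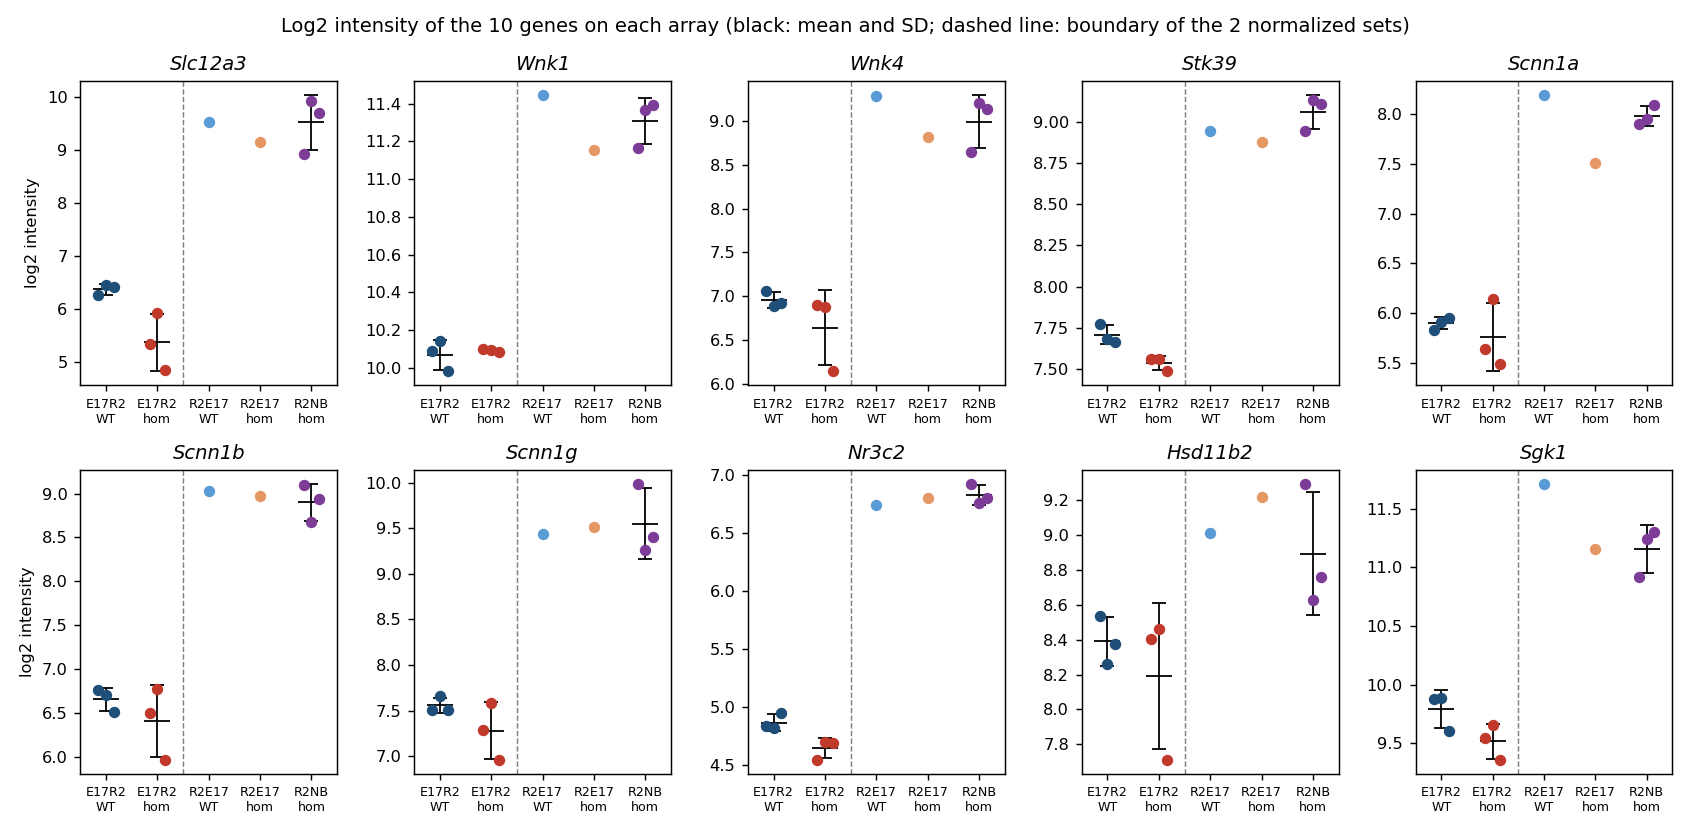
Each panel plots the log2 intensity of 1 gene on the 11 arrays, by group (WT, wild-type; hom, homozygous), with the mean and SD in black for groups of 3; the dashed line separates the sets that had been normalized apart. Slc12a3 is below 6.0 on the 3 E17R2 homozygous arrays and above 6.2 on the 3 wild-type arrays, and levels left and right of the dashed line are on different scales.

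Slc12a3 had the largest genotype difference of the 10 genes. Its log2 intensity was 6.26, 6.45 and 6.42 on E17R2WT1, E17R2WT3 and E17R2WT7, and 5.34, 5.93 and 4.85 on E17R2MU2, E17R2MU8 and E17R2MU9. The groups did not overlap, and the spread was wider in homozygous than in wild-type arrays (5.37 ± 0.54 against 6.38 ± 0.10, SD, n = 3 each). The difference was -1.0 ± 0.26 (SE), with a 95% interval of -1.62 to -0.39, or a level 2.01-fold lower in homozygous kidneys with an interval of 1.31 to 3.06. It did not pass over all genes (limma adjusted p = 0.84 after Benjamini-Hochberg adjustment). Without E17R2MU9 the difference was -0.74 ± 0.18, and leaving out each of the 6 arrays in turn gave -1.28 to -0.74. In the R2E17 pair the wild-type array read 9.52 and the homozygous array 9.15, a difference of -0.38 after the median difference of all genes was taken off. A second, dimmer probe set of Slc12a3 read 3.85 ± 0.22 in wild-type and 3.98 ± 0.10 in homozygous arrays (SD, n = 3 each), which lies below the array medians of 4.55 to 4.62. With the mean of both probe sets the difference was -0.44.

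No gene of the table passed in this comparison, with 0 of the 10 genes and 0% of 18193 genes at a limma adjusted p under 0.05. Over the 10 genes the adjusted p ran from 0.84 to 0.97. Among all genes 1019 had an unadjusted p under 0.05. On the lower side the count was 560, or 3.08% of all genes, and 2 of the 10 genes, Slc12a3 and Nr3c2. Every homozygous array lay below every wild-type array for 3 of the 10 genes, Slc12a3, Stk39 and Nr3c2, against 7.24% of all genes. Leaving out E17R2MU9 could not bring these 3 genes to overlap, and the rest of the 10 genes still overlapped without it. The median difference of the 10 was -0.23 against -0.0092 over all genes, with 9 of 10 below the median gene, and without E17R2MU9 it was -0.093 with 8 of 10 below.

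Among the kinases, Wnk4 was lower on 1 homozygous array. It read 7.06, 6.89 and 6.93 on E17R2WT1, E17R2WT3 and E17R2WT7, and 6.90, 6.88 and 6.15 on E17R2MU2, E17R2MU8 and E17R2MU9. The first 2 homozygous arrays lay within or just under the wild-type range. The difference of -0.32 ± 0.21 (SE, 95% interval -0.81 to 0.18) became -0.068 ± 0.087 without E17R2MU9. In the R2E17 pair Wnk4 was 9.28 in wild-type and 8.81 in homozygous, -0.48 relative to the median gene.

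Wnk1 read 10.09, 10.14 and 9.98 in wild-type and 10.10, 10.10 and 10.09 in homozygous E17R2 arrays. These groups overlapped, with a difference of 0.024 ± 0.081 (SE, 95% interval -0.17 to 0.22). In the R2E17 pair it was 11.45 and 11.15. The next brightest probe set read 8.56, 8.76 and 7.46 in wild-type and 8.07, 7.26 and 7.43 in homozygous E17R2 arrays, and in the R2E17 pair it was 1.13 higher on the homozygous side (9.65 against 8.52). With the mean of the 3 Wnk1 probe sets, the E17R2 difference turned to -0.21.

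Stk39 separated the E17R2 genotypes by a small margin. It read 7.78, 7.68 and 7.67 in wild-type and 7.56, 7.56 and 7.49 in homozygous E17R2 arrays, without overlap and with SDs of 0.06 and 0.04 (n = 3 each). The difference was -0.17 ± 0.08 (SE, 95% interval -0.36 to 0.020), and -0.14 without E17R2MU9. By its name suffix, this probe set may also bind transcripts of similar sequence. The R2E17 pair read 8.94 and 8.88, a difference of -0.070 relative to the median gene. The other probe sets of Stk39 gave E17R2 differences of -0.012 and -0.055.

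ENaC subunits were lower chiefly on E17R2MU9. Scnn1a, the pore-forming alpha subunit, read 5.83, 5.91 and 5.95 in wild-type and 5.64, 6.14 and 5.49 in homozygous E17R2 arrays, so the highest and the lowest value were both homozygous. For Scnn1b, the beta subunit, the values were 6.76, 6.70 and 6.51 in wild-type and 6.50, 6.77 and 5.96 in homozygous arrays. Scnn1g, the gamma subunit, read 7.51, 7.66 and 7.51 in wild-type and 7.29, 7.59 and 6.96 in homozygous arrays. All 3 subunits overlapped between the genotypes. The differences were -0.14 ± 0.17, -0.24 ± 0.21 and -0.28 ± 0.16 (SE), with 95% intervals of -0.55 to 0.27, -0.73 to 0.25 and -0.67 to 0.11. Without E17R2MU9 they were -0.0067, -0.020 and -0.12. In the R2E17 pair Scnn1a was 8.20 in wild-type and 7.51 in homozygous, while Scnn1b (9.03 and 8.97) and Scnn1g (9.44 and 9.51) differed by under 0.1. Relative to the median gene the Scnn1a difference was -0.69, the only one of the 10 genes lower by over 1.5-fold in the pair, against 2.78% of all genes.

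Nr3c2, the mineralocorticoid receptor, read 4.84, 4.82 and 4.95 in wild-type and 4.55, 4.70 and 4.69 in homozygous E17R2 arrays. The groups did not overlap, and the lowest value was on E17R2MU2 rather than E17R2MU9. The difference was -0.22 ± 0.09 (SE, 95% interval -0.43 to -0.013) and -0.25 ± 0.09 without E17R2MU9. In the R2E17 pair the sign was the opposite, 6.74 in wild-type and 6.80 in homozygous. Hsd11b2, the glucocorticoid-inactivating enzyme, read 8.54, 8.26 and 8.37 in wild-type and 8.40, 8.46 and 7.71 in homozygous E17R2 arrays. E17R2MU9 alone lay below the wild-type range, and the difference of -0.20 ± 0.21 (SE) turned to 0.041 without it. The R2E17 pair read 9.01 in wild-type and 9.22 in homozygous.

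Sgk1 was 9.88, 9.89 and 9.61 in wild-type and 9.54, 9.65 and 9.36 in homozygous E17R2 arrays, with E17R2WT7 inside the homozygous range. The difference was -0.27 ± 0.12 (SE, 95% interval -0.56 to 0.017), and -0.19 without E17R2MU9. The R2E17 pair read 11.71 in wild-type and 11.15 in homozygous. Adrenal markers were high on the same 2 wild-type arrays that had the higher Sgk1: the 11 markers summed to 5942 on E17R2WT1 and 5301 on E17R2WT3, and to 980 to 2803 on the other 4. Their part in the Sgk1 difference was not tested. In the set of 5, R2NB-4 had the highest adrenal sum (13205 against 2854 to 3720) and an Sgk1 value of 11.24, between those of R2NB-3 (10.92) and R2NB-5 (11.30).

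**Figure D2:**
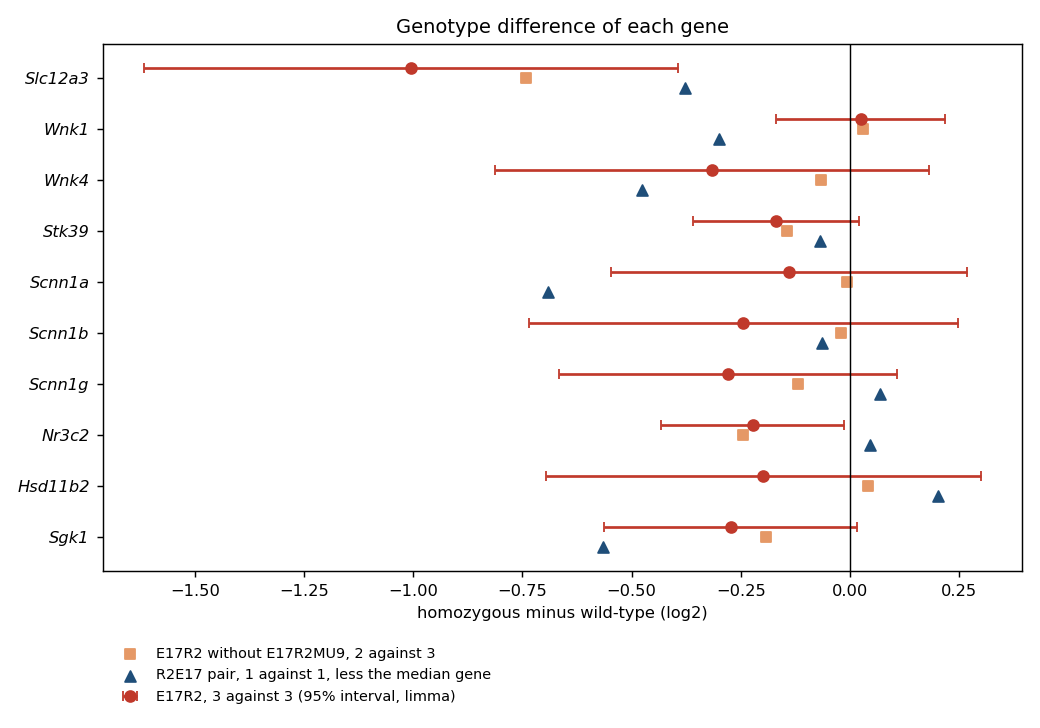
The x axis gives homozygous minus wild-type on the log2 scale for each gene, as the E17R2 difference with its 95% interval in limma (circles), the same without E17R2MU9 (squares) and the single R2E17 pair less the median gene (triangles). The intervals of Slc12a3 and Nr3c2 lie below 0 before adjustment over all genes, and the squares of Wnk4, Scnn1a, Scnn1b and Hsd11b2 lie between -0.068 and 0.041.

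E17R2MU9 was the lowest of the 6 arrays for 8 of the 10 genes, the exceptions being Wnk1 and Nr3c2, against 32.3% of all genes. Relative to the mean of E17R2MU2 and E17R2MU8 it stood at -0.79 for Slc12a3, -0.74 for Wnk4, -0.72 for Hsd11b2 and -0.67 for Scnn1b. Its 8 general epithelial markers summed to 6527 against 6688 to 7267 on the other 5 arrays, close to their range. Its 11 principal cell markers summed to 5840 against 6724 to 7739. Both lists hold Krt8 and Krt18, and Krt18 was highest on this array (10.17 against 9.60 to 10.02). Elf3 lay within the range of the others (6.19 against 5.91 to 6.30) and Spint2 just under it (10.71 against 10.72 to 10.91). Cdh16 of the principal cell list was far under it (10.68 against 11.32 to 11.54). The epithelial sum does not show that epithelial content was kept. The part of the smooth muscle signal in the low values on this array was not tested.

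The difference between the title series was tested itself, as the E17R2 genotype difference minus that of the R2E17 pair, in a limma fit over all 11 arrays that assumes the single arrays to vary like the other groups. Of the 10 genes 0 passed, with adjusted p values of 0.55 to 0.96, against 0.0165% of all genes, which was 3 genes (Ang, Nat8f2 and Rpgrip1, named after their values were seen). For Slc12a3 the difference between the series was -0.63 ± 0.61 (SE), and for Scnn1a 0.54 ± 0.31. The errors are wide because the pair has 1 array per genotype. Within the pair itself, 7 of the 10 genes were under the median gene and their median was -0.18.

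The regulators that act on these proteins were read from lists. The list of cotransporter regulators held genes that act on Slc12a3 or its kinases, and also Slc12a2, a related cotransporter rather than a regulator. Of its 10 measured genes, 0 passed in limma, 5 were under the median gene, and the list median was -0.0028. Those with the smallest p values were Cab39l (-0.13 ± 0.09, SE), a scaffold that activates Stk39, the calcineurin subunit gene Ppp3cb (0.15 ± 0.11), and Slc12a2 (-0.16 ± 0.14), the sodium-potassium-chloride cotransporter of basolateral membranes. Without E17R2MU9 they differed by -0.084, 0.046 and -0.0089. Of 12 genes that act on ENaC, 0 passed, 9 were under the median gene and 4 had no overlap on the lower side (7.24% over all genes), with a list median of -0.15. Prss8 encodes the channel-activating protease prostasin and read 7.99, 8.04 and 8.06 in wild-type and 7.66, 7.87 and 7.16 in homozygous E17R2 arrays. It differed by -0.47 ± 0.18 (SE). Sgk2, a kinase related to Sgk1, differed by -0.67 ± 0.26 and the deubiquitinase gene Usp2 by -0.30 ± 0.12, both without overlap. Without E17R2MU9 the differences were -0.26 for Prss8, -0.36 for Sgk2 and -0.20 for Usp2. Nedd4l, the ubiquitin ligase that removes ENaC from the membrane, was named after its value was seen and differed by 0.027 ± 0.081 (-0.014 without E17R2MU9).

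Genes of the corticosteroid response list lay near the median gene, with 3 of 10 below it, a list median of 0.040 and 0 that passed. The list mixes induced genes with a receptor, its chaperones and coactivators, so its median does not measure the response itself. Edn1, the endothelin 1 gene, had the smallest p of the list and differed by 0.19 ± 0.14 (SE), and by 0.16 without E17R2MU9. The glucocorticoid receptor gene Nr3c1 differed by -0.12 ± 0.09 (SE) and Per1, a clock gene that aldosterone induces, by 0.12 ± 0.13 (0.0038 without E17R2MU9). Genes of basolateral transport in distal cells had values below 0 in 7 of 7, against 52.9% of all genes, with a median of -0.32 and 0 that passed. Without E17R2MU9 the median was -0.14, with 5 of 7 below the median gene, and in the R2E17 pair it was 0.018. Kcnj1, the apical potassium channel ROMK that was placed in this list, read 7.36, 7.60 and 7.32 in wild-type and 6.72, 6.82 and 6.15 in homozygous E17R2 arrays. It differed by -0.86 ± 0.19 (SE), close in size to Slc12a3, and by 0.018 relative to the median gene in the R2E17 pair. Kcnj10, the basolateral potassium channel of the distal convoluted tubule, differed by -0.53 ± 0.16, and the sodium pump subunit Fxyd2 by -0.54 ± 0.23. Without E17R2MU9 the 3 genes differed by -0.66, -0.36 and -0.27, and in the R2E17 pair Fxyd2 was at 0.46 relative to the median gene.

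Other markers of the distal convoluted and connecting tubule had lower values in 13 of 14 genes, with a median of -0.34 (-0.17 without E17R2MU9) and 6 without overlap on the lower side, against 7.24% of all genes. The magnesium transport gene Cnnm2 (-0.45 ± 0.11, SE) and the transcription factor genes Tfap2b (-0.63 ± 0.17) and Emx1 (-0.34 ± 0.11) had the smallest p values of the list, and 0 passed. The list median was -0.056 in the R2E17 pair, where Cnnm2 was at 0.51. Principal cell markers had a median of -0.27 (-0.055 without E17R2MU9), intercalated cell markers one of -0.49 (-0.23) and thick ascending limb markers one of -0.42 (-0.27). Outside the distal nephron, proximal tubule markers had a lower median still, -0.72 (-0.36 without E17R2MU9), with 8 of 11 without overlap on the lower side, and one of 0.67 in the R2E17 pair. The collecting duct water channel gene Aqp2 differed by -0.63 ± 0.21 (SE; -0.42 without E17R2MU9), whereas between the R2E17 arrays the homozygous one was 0.66 higher relative to the median gene.

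**Figure D3:**
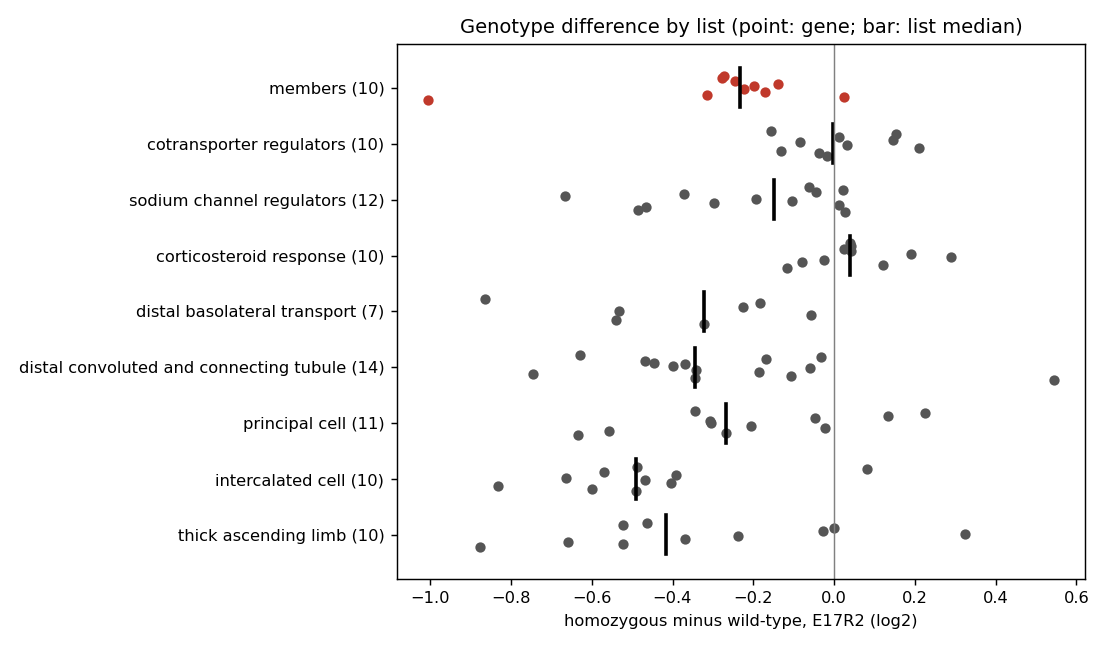
Each point is 1 gene, the x axis its E17R2 homozygous minus wild-type difference on the log2 scale, and each black bar the median of its list, with the number of measured genes in brackets and the 10 sodium reabsorption genes (members) in red. Of the lists plotted, the bars run from 0.040 for corticosteroid response to -0.49 for intercalated cells, and the lowest red point is Slc12a3 at -1.0.

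Within the set of 5, Slc12a3, Wnk1, Wnk4 and Stk39 varied in the opposite direction to Hsd11b2, Scnn1b and Scnn1g. R2NB-3 had the lowest Slc12a3 (8.93) and Wnk4 (8.64) of the 5 arrays, and the highest Hsd11b2 (9.29), Scnn1b (9.10), Scnn1g (9.99) and Nr3c2 (6.93). R2NB-4 had the highest Slc12a3 (9.92) and Stk39 (9.13), and the lowest Hsd11b2 (8.63), Scnn1b (8.68) and Scnn1g (9.26). Over the 5 arrays, Slc12a3 had a Pearson r of 0.88 with Wnk4, 0.84 with Stk39 and 0.81 with Wnk1. Wnk4 had an r of 0.96 with Wnk1 but of 0.55 with Stk39. The r of Slc12a3 was -0.98 with Hsd11b2, -0.89 with Scnn1g, -0.82 with Scnn1b and -0.76 with Nr3c2. Scnn1a and Sgk1, which also act in the collecting duct, went the other way, with an r of 0.49 and 0.52 with Slc12a3. These points share a normalization and number only 5, and the pattern was noticed in these data, so the correlations are a description. The summed principal cell markers moved with Hsd11b2, Scnn1b and Scnn1g, with 27186 on R2NB-3 against 20141 to 20907 on the other 4 arrays. The sum of general epithelial markers did so as well (21399 against 16022 to 18051), but both lists hold Krt8 and Krt18. On R2NB-3 Krt18 read 11.74 against 10.62 to 10.73. The margin was smaller for Aqp2 (10.71 against 9.82 to 10.65), Aqp3 (9.16 against 8.73 to 9.09) and Cdh16 (12.96 against 12.85 to 12.95). The sums are thus not a signal of principal cells alone. The liver markers of R2NB-4 summed to 44927 against 5067 to 6923. The part of these markers in the pattern was not tested.

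In the set of 6 all of these genes but Nr3c2 and Wnk1 were lowest on E17R2MU9. The relations of Slc12a3 with Hsd11b2, Scnn1b and Scnn1g were positive. There Slc12a3 had an r of 0.92 with Scnn1g, 0.79 with Scnn1b and 0.69 with Hsd11b2. Over all 11 arrays, with the mean of each set taken off, Hsd11b2 had an r of 0.86 with Scnn1b and 0.80 with Scnn1g, and Scnn1b one of 0.83 with Scnn1g. Without E17R2MU9, over 10 arrays, these were 0.67, 0.65 and 0.71. The r of Slc12a3 with Hsd11b2 went from 0.15 to -0.67 without that array, whereas with Stk39 it was 0.81 and 0.77 and with Wnk4 0.81 and 0.61. The ENaC subunits did not all vary alike: Scnn1a had an r of 0.51 with Scnn1b and 0.35 with Scnn1g over the 11 arrays, and of 0.21 and 0.053 without E17R2MU9.

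**Figure D4:**
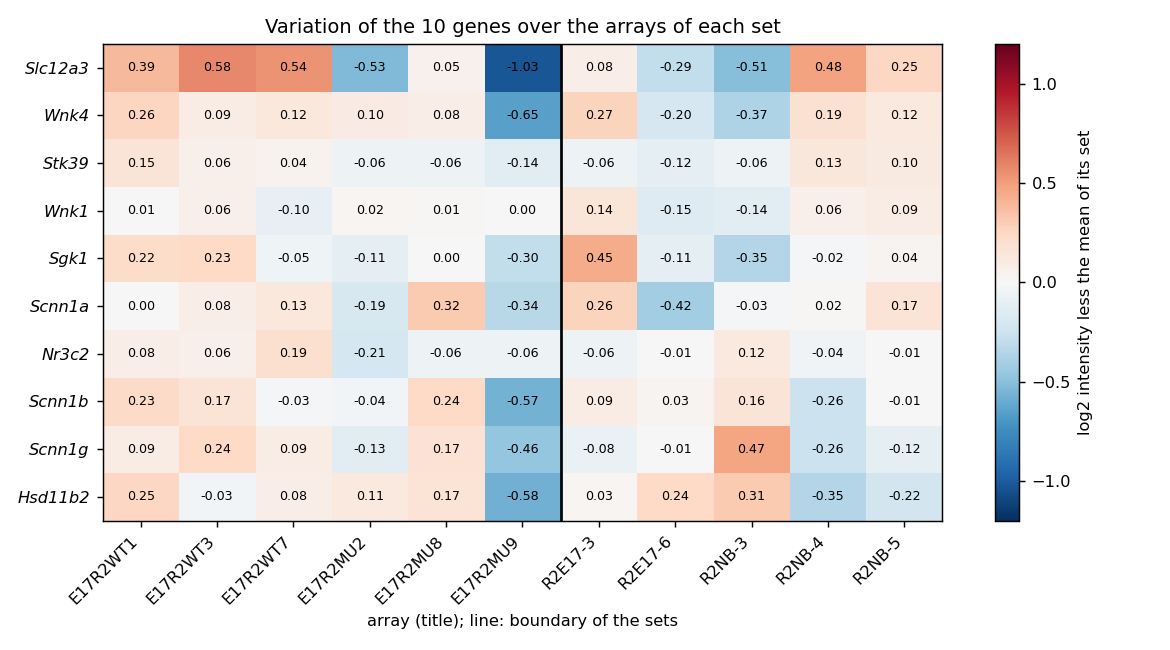
Each cell gives the log2 intensity of a gene on an array less the mean of that gene over its set (red higher, blue lower), with the sets separated by the black line. E17R2MU9 runs from -1.03 for Slc12a3 to 0.00 for Wnk1, and in R2NB-3 and R2NB-4 the top 2 rows and the bottom 3 rows have opposite signs.

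Over all genes, the 5 whose pattern was most like that of Slc12a3 over the 11 arrays, with the mean of each set taken off, were Mitf, Usp32, Synj1, Exoc6 and Stard8, with Pearson r of 0.98, 0.97, 0.96, 0.95 and 0.95. Mitf, a transcription factor gene, had an r of 0.98 both with and without E17R2MU9. Its log2 intensity was 7.48, 7.60 and 7.51 in wild-type and 7.12, 7.44 and 6.77 in homozygous E17R2 arrays. For Slc12a3 and Mitf alike, the order of the homozygous arrays from high to low was E17R2MU8, E17R2MU2, E17R2MU9, and that of the R2NB arrays R2NB-4, R2NB-5, R2NB-3. They are the highest correlations among 18193 genes and were not tested.

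Relative to the array medians, 8 of the 10 genes were higher on every array of the set of 5. The sets were normalized apart and hold 1 wild-type and 4 homozygous arrays against 3 and 3. Normalization and title series cannot be told apart, and no test was made. With homozygous arrays only, these 8 genes could not come to overlap, since fewer of the same arrays were compared. Wnk1 and Hsd11b2 still overlapped, and 24.5% of all genes were then higher without overlap. Slc12a3 stood 3.76 ± 0.34 above the array median in the set of 5 (SD, n = 5) and 1.28 ± 0.66 in the set of 6 (SD, n = 6). Its difference of 2.48, or 5.59-fold, was the largest of the 10. It was 2.38 to 2.41 with centring on the 75th percentile or quantile normalization over all arrays, 2.99 with homozygous arrays only, and 1.27 with the mean of both probe sets. The second probe set alone gave 0.067. Next came Scnn1b (1.32), Wnk4 (1.12), Scnn1a (1.02), Scnn1g (1.02) and Nr3c2 (0.96). For Sgk1 the difference was 0.53, for Stk39 0.29 and for Wnk1 0.14. The other probe sets of Stk39 gave 0.42 and -0.27, and those of Wnk1 gave 0.64 and 0.31. Hsd11b2 had the opposite sign, with 3.30 ± 0.35 above the median in the set of 5 and 3.70 ± 0.31 in the set of 6, a difference of -0.39.

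Every array of the set of 5 lay above every array of the set of 6 for 8 of the 10 genes, all but Wnk1 and Hsd11b2, against 16.3% of all genes. On the lower side the counts were 0 of 10 genes and 21.5% of all genes. The median difference was 0.99 for the 10 genes and -0.060 over all genes. With centring on the 75th percentile or with quantile normalization over all arrays, Stk39 and Sgk1 also overlapped, which left 6 of 10, against 12.3% and 17.1% of all genes. With the mean of all probe sets of a gene, Stk39 overlapped too, which left 7 of 10, against 13.3% of all genes. Proximal tubule markers had a median difference of 1.61, intercalated cell markers one of 0.98 and thick ascending limb markers one of 0.95. Higher without overlap were 10 of 11, 7 of 10 and 7 of 10 of them. The median was 0.76 for basolateral transport in distal cells (6 of 7 without overlap) and 0.75 for principal cell markers (8 of 11). For distal convoluted and connecting tubule markers it was 0.51 (9 of 14). Cotransporter regulators had one of -0.012 and corticosteroid response genes one of -0.018.

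**Figure D5:**
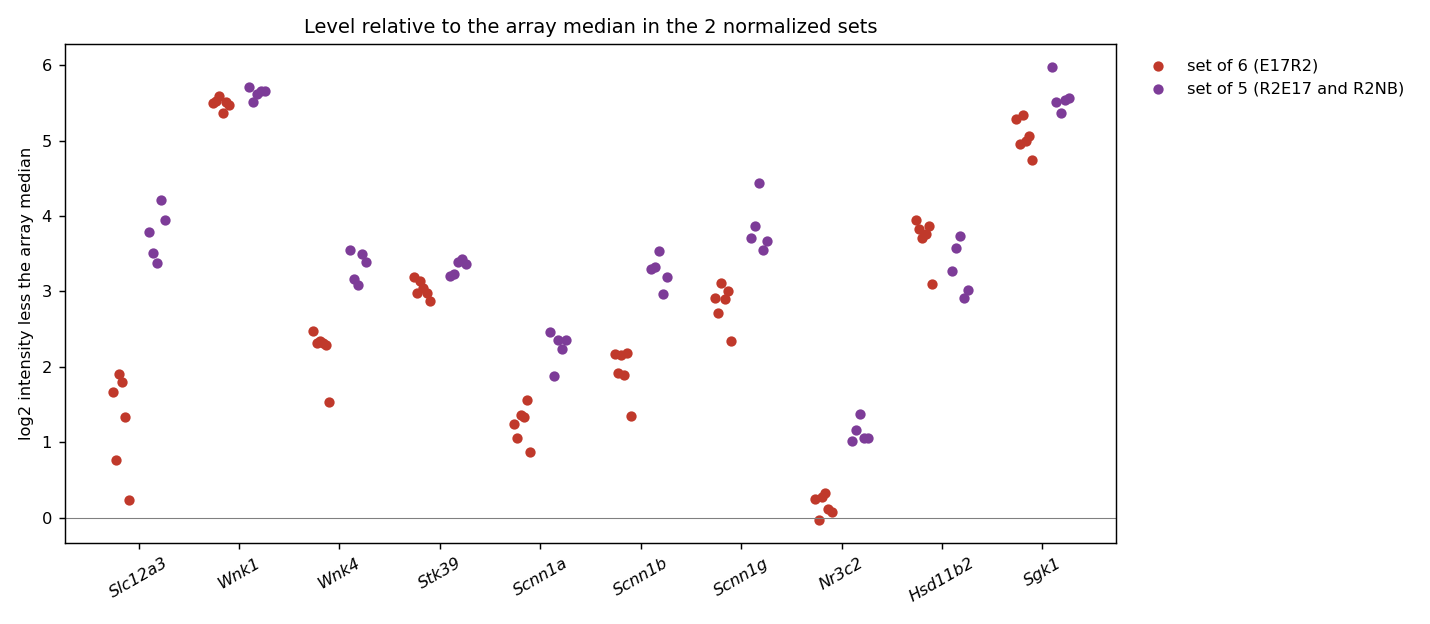
The y axis gives log2 intensity less the array median for each of the 10 genes, with 1 point per array in the set of 6 (red) and the set of 5 (purple). The sets do not overlap for 8 genes, the widest gap is that of Slc12a3, and Hsd11b2 is the gene whose mean is lower in the set of 5.

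Inside the set of 5, the R2NB arrays were set beside the R2E17 pair, gene by gene. By main probe sets, the 3 R2NB arrays lay above both R2E17 arrays for 0 of 10 genes, against 5.33% of all genes, and below both for 0 of 10, against 3.05%. At shares this low, a count of 0 among 10 genes says little. Other probe sets did stand apart. The second brightest of Wnk1 read 10.10, 10.02 and 9.97 on the R2NB arrays, above the pair's 8.52 and 9.65. The dimmest of Stk39 read 3.25, 3.46 and 3.46, below the pair's 3.92 and 3.64. For Slc12a3 the R2NB arrays read 8.93, 9.92 and 9.69, around the pair's 9.52 and 9.15. For Wnk4 they read 8.64, 9.20 and 9.13, for Scnn1a 7.91, 7.95 and 8.10, and for Sgk1 10.92, 11.24 and 11.30. R2E17-6, the homozygous array of the pair, was the lowest of the 5 for Scnn1a (7.51), and R2E17-3 the highest for Sgk1 (11.71). Means of the R2NB arrays minus R2E17-6 ran from -0.32 for Hsd11b2 to 0.47 for Scnn1a, with a median of 0.095 against 0 over all genes.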

How the data were processed

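The values are intensity, deposited by the authors on a linear scale, whereas log2 values had been assumed when the tests were planned, and log2 was taken here. RMA is the tool that the submitters' processing notes list. Sources used here do not give its version. Biotin-labelled cRNA had been prepared by the Affymetrix protocol, per the labels' protocols. Gene names came from the platform annotation, with symbols updated through the RefSeq gene table of GRCm38.p6 (34741 of 34945 probe sets with 1 symbol matched). Each gene was read by its probe set with the highest mean log2 over the 11 arrays, with no pseudocount and no filter on dim genes.

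E17R2 genotypes were compared by lmFit and eBayes of limma 3.58.1, run in R 4.3.3 (2-sided, Benjamini-Hochberg adjustment over 18193 genes, threshold 0.05) on the 6 E17R2 arrays. The fit was tested on simulated data. The R2E17 pair, the 2 sets and the R2NB arrays were described without a test. Array medians were taken over all 45101 probe sets. Arrays limit the precision by their number. The rule for names took the 10 genes, up to 3 genes with the smallest p from each list, the 5 genes most like Slc12a3, and Robo2. The 10 genes and the lists were chosen with earlier results of these data known. The alternatives left out single arrays, pooled all arrays, or changed the centring, probe set, filter, offset and variance model.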

Additional observations from a re-analysis of the deposited data

How the results depend on the processing

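The count of genes that passed in E17R2 was 0 in every limma fit but 1. The fit without E17R2 wild-type replicate 7 called 1 gene (range 0 to 1 with 1 array left out), Mrap, an adrenal melanocortin receptor partner named after its value was seen. Of the 10 genes 0 passed in any of the 15 alternatives (lowest adjusted p = 0.68). With 1 array left out, Wnk1 ran from -0.019 to 0.059 and Hsd11b2 from -0.33 to 0.041. Wnk1 changed sign without that wild-type array (-0.019), with 4 against 4 arrays and a term for the title series (-0.055) and with the mean of all its probe sets (-0.21). Hsd11b2 changed sign without E17R2 homozygous replicate 9 (0.041), and so did the difference between the title series for Scnn1b (-0.19, and 0.036 without it). The mean of all probe sets turned the R2E17 difference of Wnk1 from -0.30 to 0.33 and that of Stk39 from -0.070 to 0.046. The cause of these changes was not tested. Slc12a3 ran from -1.28 to -0.44 over the alternatives that included it, and was at -0.77 with 16 added to the intensities. The filter on dim genes used the median of the gene means over the E17R2 arrays, not the array median over all probe sets. Slc12a3, Nr3c2 and Scnn1a lay below that median of gene means and left the fit. The median of smooth muscle markers went from 0.91 to -0.21 without E17R2MU9, an alternative chosen after seeing the data, as were the counts, list medians and values of list genes without that array. No paired analysis was possible because the E17R2 genotypes share no replicate number. Their numbers form 2 runs, 1 to 3 and 7 to 9, each with both genotypes, which the labels do not call a batch. With a term for the runs, also chosen after seeing the data, 0 genes passed (741 at an unadjusted p under 0.05), Slc12a3 was at -1.02 and no gene of the 10 changed sign.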

Other observations

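A further probe set of Wnk1 and one of Stk39, neither the main one of its gene, varied together over the arrays. The second brightest probe set of Wnk1 read 8.56 and 8.76 on E17R2WT1 and E17R2WT3, 8.07 on E17R2MU2, and 7.46, 7.26 and 7.43 on E17R2WT7, E17R2MU8 and E17R2MU9. E17R2WT1, E17R2MU2 and E17R2WT3 were thus above E17R2WT7, E17R2MU8 and E17R2MU9 in both genotypes, and the adrenal sums split the same way (2803 to 5942 against 980 to 1332). In the set of 5 the Wnk1 probe set was 8.52 on R2E17-3 and 9.65 to 10.10 on the other 4 arrays. The second brightest one of Stk39 read 7.09 on E17R2WT3, 6.33 on E17R2WT7 and 6.65 to 6.82 on the other 4, and in the set of 5 it was lowest on R2E17-3 (7.79 against 8.17 to 8.63). With the array median and then the mean of each set taken off, the r of the 2 probe sets over 11 arrays was 0.79. It describes a pair picked after the values were seen. On R2E17-3 the Gapdh control difference between 3′ and 5′ probe sets was 0.70. In the set of 6 that control ran from -0.013 to 0.15, with 0.15 on E17R2WT1 and 0.080 on E17R2WT7, and its part in the Wnk1 values was not tested.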
